A study of Mus musculus with 30 samples.

Results

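The effect of a coronary artery ligation on the mouse heart transcriptome was compared between day 7 and day 2 after the operation. For each gene, the log2 fold change of infarcted (MI) over sham hearts at day 2 was subtracted from that at day 7. A positive change therefore means that MI relative to sham was higher at day 7 than at day 2. The contrast uses 20 of the 30 RNA-seq libraries of the series, chosen by their titles, in 4 groups of 5: day 7 MI, day 7 sham, day 2 MI and day 2 sham. All hearts came from wild-type C57BL/6J mice, which on day 0 received isoflurane anaesthesia and an opened chest with the pericardium taken off. MI mice then had a coronary artery tied, and sham mice did not. The labels give neither the age or sex of the mice nor the part of the heart that was sampled. They name the 5 samples of a group without saying how they were obtained, so the p-values below speak only of sample-to-sample spread, which may be technical. A heart named below, or counted in n, stands for such a sample and not for a known separate animal. The 10 libraries of day 4 entered the fit, and their own infarct effect is given where it places a change in time.

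After an infarct, dying muscle first draws in neutrophils and monocytes. Macrophages then clear debris, while fibroblasts divide, turn into matrix-secreting myofibroblasts and build a collagen scar. Heart muscle cells outside the scar, which normally burn mostly fatty acids, lower their oxidative genes and turn on stress genes. In bulk tissue, fewer cells of a type and less RNA per cell cannot be told apart.

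The libraries held 7841930 to 14070017 counts and detected 18668 to 20905 of 43629 genes. Genes of the sarcomere, the contractile unit of heart muscle, summed to 51809 to 63288 CPM (each gene's count scaled to a common library total) in day 7 MI, 74896 to 87919 in day 7 sham, 61400 to 72801 in day 2 MI and 70633 to 79766 CPM in day 2 sham libraries, and none of the 20 listed genes was at 0 throughout. Some day 7 libraries also held transcripts of other tissues. A list of 10 lung epithelium genes summed to 7.39 to 2200.2 CPM in day 7 MI and 1.76 to 595 CPM in day 7 sham libraries, against 5.47 to 10.1 CPM in day 2 MI and 2.91 to 4.4 CPM in day 2 sham libraries. Myh1, a myosin of skeletal muscle, had 288 CPM in day 7 MI replicate 4 and at most 0.431 CPM in any other library. Day 7 sham replicate 2 also stood apart from its group, with the highest value for many matrix genes. Results are also given without the other-tissue libraries where that changes them. These are day 7 MI replicates 2 and 4, day 7 sham replicates 1, 2 and 3, and 2 sham libraries of day 4. That leaves 3 MI and 2 sham libraries at day 7. With fewer libraries a call can be lost although the change is no smaller. Of those kept, day 7 MI replicates 3 and 5 still held 45.55 and 50.04 CPM of the lung list. Day 7 MI replicate 1 held 7.39 CPM, and day 7 sham replicates 4 and 5 held 1.76 and 2.68 CPM. Lung transcripts were therefore reduced but not removed from the day 7 MI libraries. The day 2 libraries carry another name prefix in the labels than those of days 4 and 7, so that day and library set cannot be told apart. Only a shift of equal fold in the MI and sham libraries of a day cancels in the contrast. Added transcripts of other tissues need not cancel.

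Of 15537 genes tested, 2990 changed their infarct effect between the days (19.2%), by edgeR's quasi-likelihood test at a Benjamini-Hochberg adjusted p under 0.05. The effect was higher at day 7 for 1575 genes (10.1%) and lower for 1415 genes (9.11%). Changes upward were larger: 664 of the 1575 genes were at least 2-fold and 125 at least 4-fold, against 101 and 10 of the 1415 genes. The median log2 change was 0.89 for the genes called higher and -0.53 for those called lower, with 0.03 over all genes tested. At day 7, MI hearts had 4737 genes above sham (30.5%) and 4234 below (27.3%). The same comparison at day 2 called 3284 genes higher (21.1%) and 3309 lower (21.3%).

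Most changes upward were genes that were above sham at day 7 with no call at day 2 (874 of 1575). A further 337 were above sham at both days, 217 were below sham at day 2 with no call at day 7, and 113 reversed. Among the changes downward, 610 of 1415 were below sham at day 7 with no call at day 2, 404 were below sham at both days, 261 were above sham at day 2 with no call at day 7, and 70 reversed. The infarct effect at day 4 lay between those of days 2 and 7 for 1392 of the 1575 genes called higher and 1235 of the 1415 called lower. Over all genes tested this share was 50.3%, and choosing genes for a wide gap between days 2 and 7 itself favours a value in between.

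**Figure D1:**
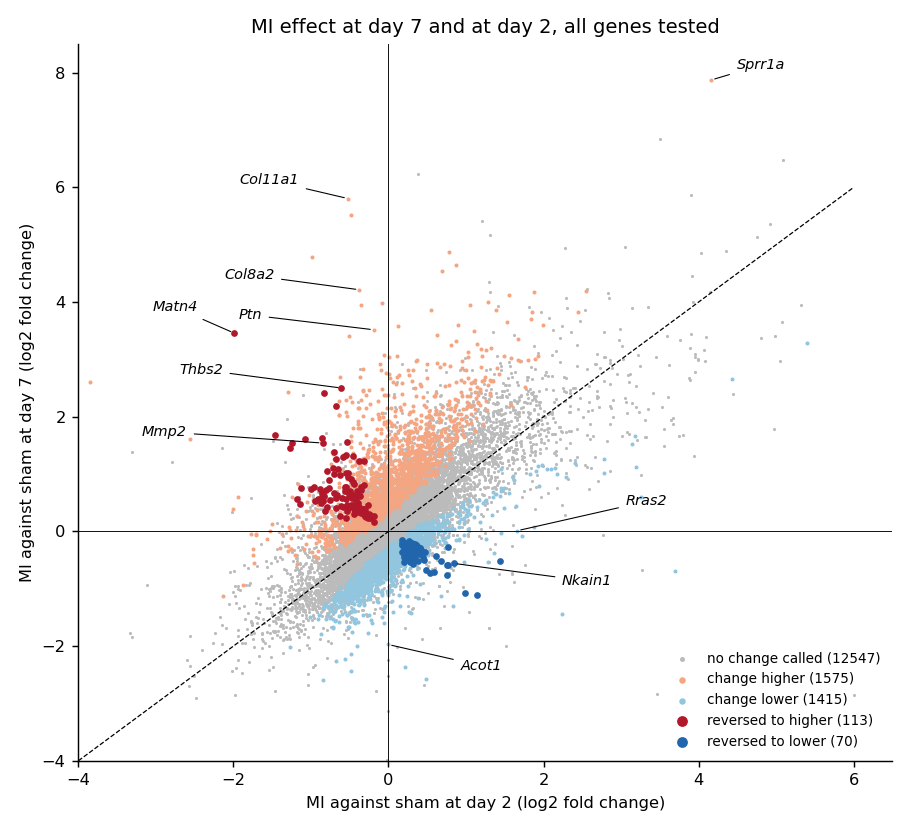
Log2 fold change of MI over sham hearts at day 7 (vertical) against that at day 2 (horizontal), 1 point per gene for the 15537 genes tested, 2 of which lie outside the axes; the dashed line marks equal effects. The 113 genes that reversed to higher lie at the upper left and the 70 that reversed to lower at the lower right, with smaller effects.

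A gene was counted as reversed when MI and sham differed at both days with opposite signs, each at an adjusted p under 0.05. MI was above sham at day 7 and below it at day 2 for 113 genes (0.727% of those tested), and the other way round for 70 genes (0.451%). All 183 were also called in the contrast itself, which effects called at both days with opposite signs make almost certain. Reversals were mostly modest: the median size of the log2 effect was 0.58 at day 7 and 0.52 at day 2 for the 113 genes, and 0.36 and 0.33 for the 70 genes. In 37 of all genes tested (0.238%) the CPM of MI and sham did not overlap at either day, in opposite directions, and 22 of these were among the 183. Tested by edgeR against a fold change of at least 1.5 at each day, only Matn4 was still reversed to higher (8 genes at an unadjusted p under 0.05) and no gene to lower (1 gene). Without the other-tissue libraries 69 and 47 genes reversed, 57 and 37 of them the same genes. The 113 became 75 without day 2 sham replicate 1 and 71 without day 2 sham replicate 2.

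Several of the genes that reversed to higher encode matrix proteins. Matn4 (ENSMUSG00000016995, chromosome 2, 164389393 to 164405160, GRCm38) encodes matrilin-4, a protein that links matrix filaments. Matn4 had 13.6, 25.7, 17.8, 20.9 and 17.8 CPM in day 7 MI hearts and 1.56, 2.35, 0.660, 1.13 and 1.91 CPM in day 7 sham hearts. In day 2 MI hearts it had 0.411, 0.0780, 0, 0.142 and 0.372 CPM, against 1.07, 0.532, 0.598, 0.464 and 1.15 CPM in day 2 sham hearts. MI and sham did not overlap at either day, on opposite sides. Its log2 infarct effect was 3.46 at day 7 and -1.99 at day 2, a change of 5.45 ± 0.63 (SE, as for all log2 changes given here; edgeR adjusted p = 5.42e-07). The day 2 MI values are close to the 0.213 to 0.318 CPM that 3 counts make there, so the size of the day 2 effect rests on few counts.

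Mmp2 (ENSMUSG00000031740, chromosome 8, 92827291 to 92853420, GRCm38), gelatinase A, an enzyme that cuts denatured collagen, reversed at higher levels. Day 7 MI hearts had 191, 327, 316, 370.2 and 250.2 CPM and day 7 sham hearts 88.3, 121, 80.7, 86.9 and 63.4 CPM. Day 2 MI hearts had 47.3, 48.4, 43.9, 50.8 and 44.8 CPM and day 2 sham hearts 110.2, 102, 56.1, 78.2 and 47.2 CPM. The day 7 groups were clear of each other, whereas 1 day 2 sham heart lay among the day 2 MI hearts. The change was 2.39 ± 0.29, with an effect of 1.54 at day 7 and -0.85 at day 2 (edgeR adjusted p = 2.39e-06 for the change). Itm2a (ENSMUSG00000031239, chromosome X, 107397099 to 107403376, GRCm38), which encodes an integral membrane protein, averaged 61.5 ± 15.8 CPM in day 7 MI and 17.5 ± 3.58 CPM in day 7 sham hearts, and 10.2 ± 2.51 CPM in day 2 MI and 17.0 ± 2.15 CPM in day 2 sham hearts (SD, n = 5 each). Itm2a changed by 2.48 ± 0.21 (edgeR adjusted p = 4.3e-09) without overlap of MI and sham at either day.

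Thbs2 (ENSMUSG00000023885, chromosome 17, 14665500 to 14694235, GRCm38), thrombospondin-2, a matricellular protein that shapes collagen fibrils, averaged 232 ± 63.1 CPM in day 7 MI and 36.2 ± 9.97 CPM in day 7 sham hearts. The day 2 averages of Thbs2 were 17.9 ± 4.90 CPM in MI and 25.2 ± 6.52 CPM in sham hearts (SD, n = 5). Its effect was 2.50 at day 7 and -0.61 at day 2, a change of 3.11 ± 0.32 (edgeR adjusted p = 1.4e-07). Abi3bp (change 2.10 ± 0.28), Megf6 (1.94 ± 0.34), C1qtnf2 (1.72 ± 0.25), Nynrin (1.66 ± 0.30) and Islr (1.62 ± 0.23) also reversed to higher by edgeR. Islr, a secreted leucine-rich protein of mesenchymal cells, averaged 95.4 ± 17.5 CPM in day 7 MI, 50 ± 8.11 in day 7 sham, 22.1 ± 4.87 in day 2 MI and 37.5 ± 7.94 CPM in day 2 sham hearts (SD, n = 5 each).

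Small leucine-rich proteoglycans, which coat collagen fibrils and set their width, supplied 4 of the 113 genes from a list of 9. Over all genes tested 0.727% reversed to higher. Lum (effect 1.31 at day 7 and -0.46 at day 2), Ogn (0.53 and -0.85), Dcn (0.42 and -0.79) and Prelp (0.65 and -0.49) were above sham at day 7 and below it at day 2. The complement list also supplied 4, of 14 genes, among them Serping1, the inhibitor of the first complement component (0.67 and -0.86), and the proteases C1s1 (0.57 and -1.18) and C1ra (0.48 and -1.14). C1s1 and C1ra each have a near copy in the mouse genome, with which reads may have been shared. Pi16 and Dpt, markers of resting fibroblasts, reversed with changes of 1.45 ± 0.21 and 1.04 ± 0.20. The matrix protease list had 3 reversed genes of 20, Mmp2, the protease inhibitor Timp2 (1.40 ± 0.18) and the aggrecanase Adamts5 (1.04 ± 0.20).

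**Figure D2:**
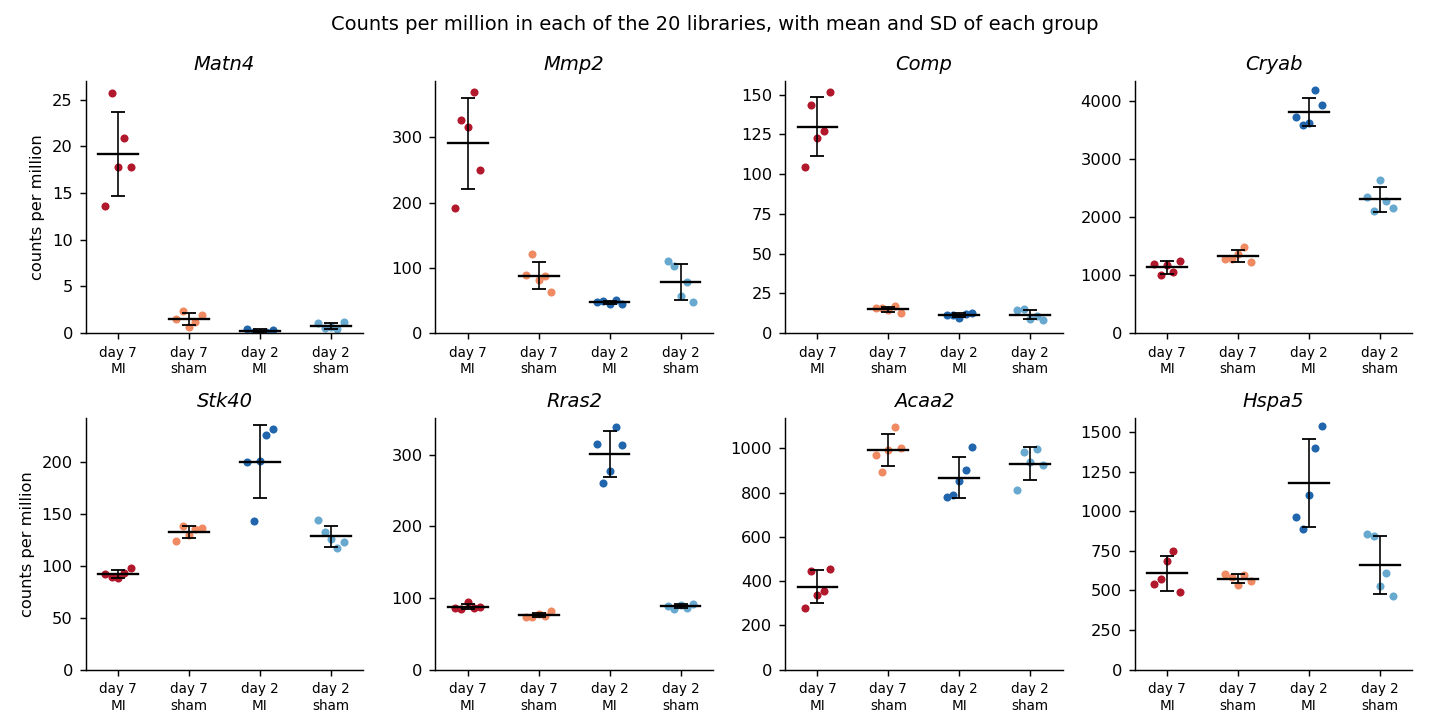
CPM of 8 genes in each of the 20 libraries (vertical, from 0), by group (horizontal); points are libraries, the line is the mean and the bars are the SD (n = 5). Matn4, Mmp2 and Comp stood highest in day 7 MI hearts, Cryab, Stk40, Rras2 and Hspa5 in day 2 MI hearts, and Acaa2 was low in day 7 MI hearts alone.

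The genes that reversed to lower included stress proteins. Cryab (ENSMUSG00000032060, chromosome 9, 50751325 to 50756636, GRCm38) encodes alpha-B-crystallin, a small heat shock protein that guards the sarcomere. Cryab had 1188, 994, 1167, 1046 and 1244 CPM in day 7 MI hearts and 1273, 1282, 1368, 1473 and 1226 CPM in day 7 sham hearts. Day 2 MI hearts held 3711, 3586, 3615, 4177 and 3926 CPM, against 2349, 2096, 2637, 2264 and 2152 CPM in day 2 sham hearts. The groups were apart at day 2, and at day 7 the highest MI heart lay just above the lowest sham heart. The effect was -0.42 at day 7 and 0.61 at day 2, a change of -1.04 ± 0.15 (edgeR adjusted p = 1.72e-05). Cryab was also lower at day 7 than at day 2 among sham hearts (log2 difference -0.83, adjusted p = 3.98e-07).

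Stk40 (ENSMUSG00000042608, chromosome 4, 126103957 to 126141029, GRCm38), which encodes a protein related to kinases, had 91.7, 89.5, 88.8, 93.0 and 98.0 CPM in day 7 MI hearts and 124, 138, 130.1, 136 and 136 CPM in day 7 sham hearts. At day 2 its values were 200.2, 144, 201, 226 and 232 CPM in MI hearts and 144, 133, 126, 118 and 123 CPM in sham hearts. Every day 7 MI heart was below every day 7 sham heart, and at day 2 the lowest MI heart lay just under the highest sham heart. Stk40 changed by -1.25 ± 0.14, with effects of -0.72 at day 7 and 0.54 at day 2 (edgeR adjusted p = 5.39e-07). Hmga1, an architectural chromatin protein, averaged 23.7 ± 2.01 CPM in day 7 MI, 31.2 ± 2.87 in day 7 sham, 44.7 ± 3.18 in day 2 MI and 24.4 ± 2.46 CPM in day 2 sham hearts (SD, n = 5 each). Hmga1 changed by -1.35 ± 0.15 and its near-identical copy Hmga1b by -1.20 ± 0.14; reads may have been split between the pair, so which of them changed is uncertain.

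Nkain1 (change -1.40 ± 0.23), a partner of the sodium pump, Dusp10 (-1.16 ± 0.21), a phosphatase of stress kinases, Mrps18b (-0.96 ± 0.17), a mitochondrial ribosome protein, and Tmem41a (-0.79 ± 0.14) reversed in the same direction by edgeR. Dusp10 was already below sham at day 4, with an effect of -0.78 against -0.67 at day 7, whereas Nkain1 was at 0.27 and Tmem41a at -0.07 at day 4, neither called. Egln3, an oxygen sensor that marks hypoxia-inducible factors for breakdown, averaged 108 ± 16.2 CPM in day 7 MI, 142 ± 16.2 in day 7 sham, 196 ± 57.8 in day 2 MI and 108 ± 29.7 CPM in day 2 sham hearts (SD, n = 5 each). It was the 1 gene of 13 in the hypoxia list to change (2 without day 2 MI replicate 2), by -1.34 ± 0.25 (edgeR adjusted p = 0.000401). Over all genes tested 9.11% were called lower, so the list's count does not set it apart. Cidea, a lipid droplet protein, changed by -1.52 ± 0.28, and by -0.82 without the other-tissue libraries, where it was no longer called (adjusted p = 0.0587). Cidea is also a brown fat marker. The 6 brown fat genes listed summed to 240.0 to 336 CPM in day 7 MI, 246 to 479.9 in day 7 sham, 369.9 to 461 in day 2 MI and 393 to 636 CPM in day 2 sham libraries. Ucp1, which defines brown fat, had 0 to 7.39 CPM in day 7 MI, 2.93 to 33.1 in day 7 sham and 0 to 3.51 CPM in day 2 MI libraries, and was at 0 in all day 2 sham libraries. The part of brown fat in the change of Cidea was not tested.

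**Figure D3:**
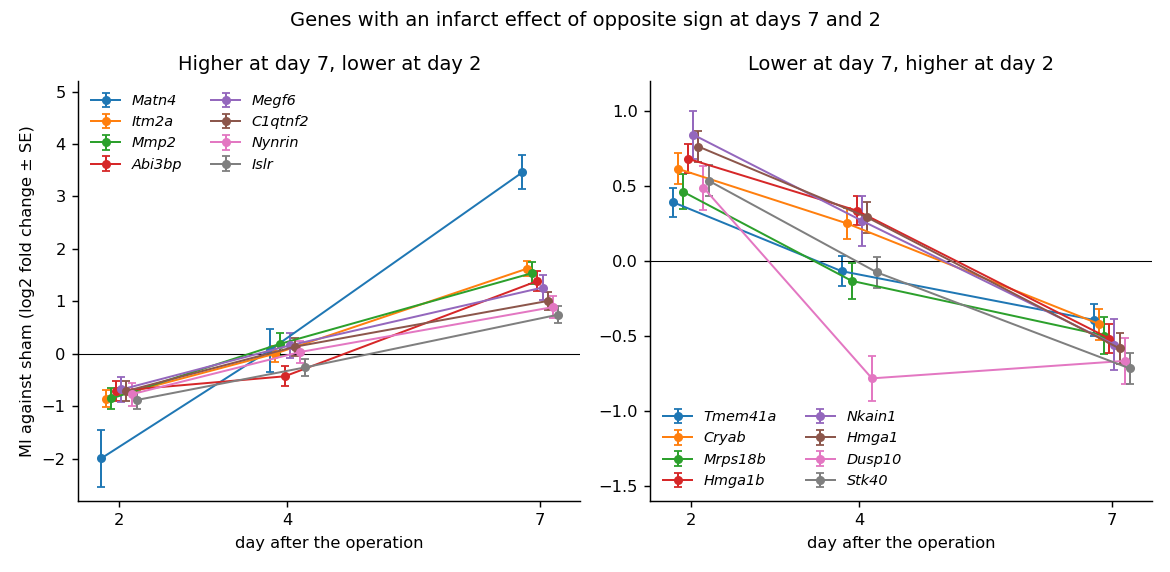
Log2 fold change of MI over sham (vertical, with SE) at days 2, 4 and 7 (horizontal) for 8 genes that reversed to higher, left, and 8 that reversed to lower, right. At day 4 the effects of the left genes lay between -0.43 (Abi3bp) and 0.19 (Mmp2); on the right Dusp10 stood apart at -0.78.

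In several matrix lists most genes changed upward. Fibrillar collagens had 6 of 9 tested genes higher in the contrast, other collagens 16 of 16, elastic fibre genes 13 of 14, late scar and cartilage-related genes 12 of 16 and collagen processing enzymes 15 of 19, against 10.1% of all genes tested. Their median log2 changes were 2.41, 1.90, 1.45, 2.03 and 1.04, beside 0.03 over all genes. At day 2 the median effect of MI was near 0 in the fibrillar collagen list (0.08) and in the late scar list (-0.05), and at day 7 it was 2.58 and 2.34. Without the other-tissue libraries, 10 of the 19 collagen processing genes were called. So were 12 of the 16 other collagens, 12 of 14 elastic fibre genes and 11 of 16 late scar genes.

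Col11a1 (ENSMUSG00000027966, chromosome 3, 114030540 to 114220718, GRCm38), a minor fibrillar collagen typical of cartilage, showed the largest change among the genes chosen for naming. Its values were 58.1, 58.8, 144, 59.1 and 21.7 CPM in day 7 MI hearts and 1.01, 1.46, 0.990, 0.879 and 1.02 CPM in day 7 sham hearts, and they stayed at or under 0.559 CPM in day 2 MI and 0.622 CPM in day 2 sham hearts. Col11a1 thus appeared in every day 7 MI heart and was near the counting limit at day 2. The change was 6.33 ± 1.24 (edgeR adjusted p = 0.000816). Col8a2 (ENSMUSG00000056174, chromosome 4, 126286793 to 126314330, GRCm38), a short-chain collagen, averaged 70.2 ± 20 CPM in day 7 MI, 3.29 ± 0.676 in day 7 sham, 0.993 ± 0.225 in day 2 MI and 1.16 ± 0.257 CPM in day 2 sham hearts (SD, n = 5 each), a change of 4.59 ± 0.44 (adjusted p = 5.37e-08).

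The main scar collagens Col1a1 and Col3a1 changed by 2.59 ± 0.44 and 2.18 ± 0.39 (edgeR adjusted p = 0.000232 and 0.000334). Neither was called at day 2, where their effects were 0.14 and -0.13. Col1a1 had 2579, 3645, 6009, 3989 and 2093 CPM in day 7 MI hearts and 477, 825, 359.9, 326 and 463 CPM in day 7 sham hearts. The day 2 values of Col1a1 were 489, 468, 331, 315 and 258 CPM in MI hearts and 427, 463, 204, 292 and 174 CPM in sham hearts. Col1a1 was far higher in every day 7 MI heart than in any other heart, and overlapped at day 2. Eln, elastin, had 790, 1373, 1431, 1674 and 1311 CPM in day 7 MI hearts against 192, 266, 157, 139.9 and 138 CPM in day 7 sham hearts. The day 2 values of Eln were 59.6, 56.8, 46.8, 47.6 and 42.2 CPM in MI hearts and 103, 44.7, 46.5, 64.1 and 43.1 CPM in sham hearts. Eln was separate at day 7 and mixed at day 2, and it changed by 3.06 ± 0.47 (edgeR adjusted p = 6.97e-05). Fbln5, which helps to assemble elastic fibres, changed by 2.34 ± 0.24 and Fbn1, the core of microfibrils, by 2.11 ± 0.37.

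Among the late scar genes, Comp (ENSMUSG00000031849, chromosome 8, 70373558 to 70382066, GRCm38), a cartilage matrix protein, averaged 129.9 ± 18.4 CPM in day 7 MI and 15 ± 1.71 CPM in day 7 sham hearts, and 11.4 ± 1.28 CPM in day 2 MI and 11.5 ± 2.90 CPM in day 2 sham hearts (SD, n = 5 each). Comp changed by 3.04 ± 0.35 (edgeR adjusted p = 1.01e-06), and so did the proteoglycan Fmod (2.84 ± 0.46), Cilp (2.62 ± 0.39) and Sox9 (1.94 ± 0.25), the regulator of cartilage formation. Secreted Wnt antagonists moved as well: Sfrp2 changed by 3.04 ± 0.44, Sfrp1 by 2.80 ± 0.27 and Frzb by 2.21 ± 0.22. That gave 3 higher of 8, against 10.1% of all genes. Sfrp5 was the 1 gene lower (-1.28 ± 0.44), a call lost without any 1 of 11 libraries (day 2 MI replicates 2 and 5, day 2 sham replicates 1, 3, 4 and 5, day 7 MI replicates 1 and 2, and day 7 sham replicates 1, 3 and 4) and without the other-tissue libraries. Ptn, a heparin-binding growth factor, changed by 3.71 ± 0.33. Lox, which crosslinks collagen and elastin, was above sham at both days (3.83 and 1.85) and further so at day 7 (1.98 ± 0.37, edgeR adjusted p = 0.000482). C1qtnf3 had a change of 4.08 ± 1.43 (adjusted p = 0.0431) that lost its call when any 1 of 8 libraries was left out (day 2 MI replicates 3, 4 and 5, day 2 sham replicates 1, 2 and 3, and day 7 sham replicates 2 and 5). Cemip, a hyaluronan-degrading protein, changed by 3.77 ± 0.92, and by 4.46 without day 7 sham replicate 2.

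Most myofibroblast and matricellular genes were above sham at both days, 17 of 18 at day 7 and 15 at day 2. Over all genes tested the shares were 30.5% and 21.1%. In the contrast 13 of 18 rose (11 without the other-tissue libraries), against 10.1% of all genes. The median effect was 2.54 at day 7 and 1.02 at day 2. Postn, periostin, had 1803, 2150, 1984, 2447 and 1401 CPM in day 7 MI hearts and 171, 319, 163, 126 and 172 CPM in day 7 sham hearts. At day 2 Postn had 283, 290, 204, 164 and 144 CPM in MI hearts and 144, 108, 57.6, 80.8 and 48.8 CPM in sham hearts, a change of 2.0 ± 0.39 (edgeR adjusted p = 0.000684). The groups were far apart at day 7 and touched at day 2, where 1 MI heart nearly equalled the highest sham heart. Fap, a surface protease of activated fibroblasts, changed by 2.32 ± 0.28 and the integrin Itga11 by 2.16 ± 0.39. Acta2, smooth muscle actin, changed by 0.97 ± 0.31 (adjusted p = 0.0285), a call lost without any 1 of 6 libraries (day 2 MI replicate 3, day 2 sham replicates 1 and 4, day 7 MI replicates 3 and 4, and day 7 sham replicate 5) and without the other-tissue libraries (adjusted p = 0.0977). Tnc, tenascin-C, had a change of 0.82 ± 0.62 and Timp1 of 0.28 ± 0.31, with no call by edgeR (adjusted p = 0.379 and 0.573). Both were far above sham at day 7 (3.25 and 2.84) and at day 2 (2.43 and 2.56). Leaving out day 7 sham replicate 2 gave Tnc 1.55 (adjusted p = 0.0545).

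Genes of resting fibroblasts were mostly below sham at day 2, with 9 of 14 called lower and 1 higher. At day 7 they had 7 called higher and 2 lower. Over all genes tested the shares were 21.3% lower and 21.1% higher at day 2, and 30.5% higher and 27.3% lower at day 7. The contrast called 10 of the 14 higher (8 without the other-tissue libraries), against 10.1% of all genes, with a median of 0.93. Tcf21, a transcription factor of the fibroblast lineage, changed by 1.36 ± 0.22 and Pdgfra, a growth factor receptor of fibroblasts, by 0.88 ± 0.27. Pi16 averaged 155 ± 19.3 CPM in day 7 MI, 89.4 ± 16.5 in day 7 sham, 51.6 ± 5.37 in day 2 MI and 85.4 ± 20.5 CPM in day 2 sham hearts (SD, n = 5 each). In the TGF-beta list 5 of 14 genes rose, among them the ligand Tgfb3 (0.97 ± 0.19), both receptors Tgfbr1 (0.73 ± 0.13) and Tgfbr2 (0.81 ± 0.17) and the signal inhibitor Skil (1.02 ± 0.17). Tgfb1 had -0.06 ± 0.14 and Tgfb2 -0.14 ± 0.21, not called.

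**Figure D4:**
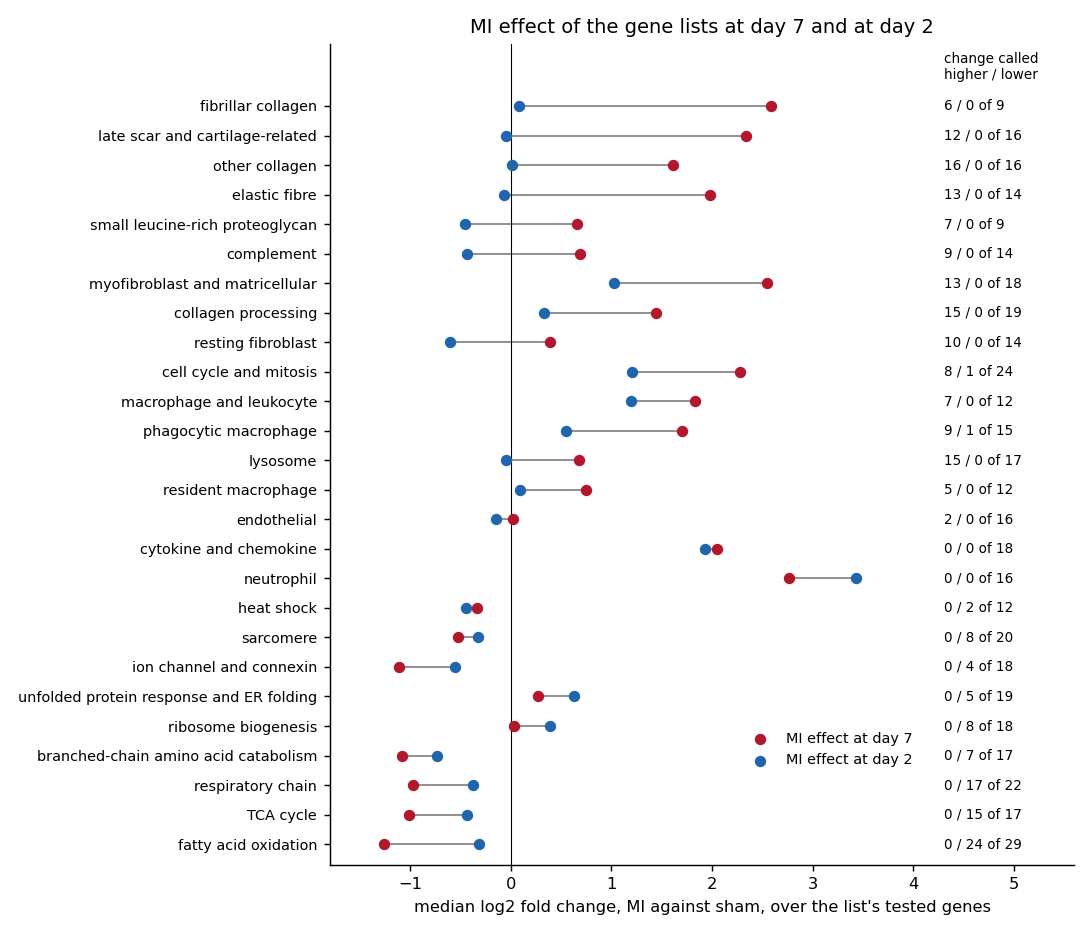
Median log2 fold change of MI over sham (horizontal) at day 7 and at day 2 for 26 gene lists (vertical), with the number of genes called higher and lower in the contrast at the right. The fibrillar collagen, other collagen, elastic fibre and late scar lists had medians near 0 at day 2 and above 0 at day 7, oxidative lists lay further below 0 at day 7, and neutrophil and cytokine lists were high at both days with no gene called.

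Several macrophage genes had a higher infarct effect at day 7. The general macrophage and leukocyte list had 7 of 12 genes higher in the contrast, phagocytic macrophage genes 9 of 15 with 1 lower (2 without day 2 MI replicate 1, none without the other-tissue libraries), and resident macrophage genes 5 of 12, against 10.1% of all genes higher and 9.11% lower. Adgre1 (F4/80, a macrophage surface protein) had 107, 104, 125, 121 and 75.6 CPM in day 7 MI hearts and 25.4, 37.3, 26.7, 26.9 and 26.8 CPM in day 7 sham hearts. Its day 2 values were 36.8, 51.5, 39.0, 27.4 and 36.7 CPM in MI hearts and 30.6, 32.0, 19, 28.8 and 17.0 CPM in sham hearts. Adgre1 changed by 1.25 ± 0.22 (edgeR adjusted p = 0.000287), apart at day 7 and overlapping at day 2. Trem2, a lipid-sensing receptor of phagocytes, changed by 1.68 ± 0.42 and Apoe, which carries lipids out of them, by 1.70 ± 0.23. Gpnmb, a glycoprotein of lipid-loaded macrophages, changed by 3.31 ± 0.75, by 3.93 without day 2 MI replicate 2 and by 4.06 without day 7 sham replicate 2. Mrc1, the mannose receptor, changed by 1.23 ± 0.28 and Igf1 by 1.25 ± 0.25. Lyve1 had 0.26 ± 0.25 and Timd4 0.10 ± 0.34, not called.

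Of 17 lysosomal genes 13 were above sham and 1 below at day 7 (median effect 0.68). At day 2, 5 were above and 3 below (median -0.04). Over all genes tested 30.5% were above and 27.3% below at day 7, and 21.1% and 21.3% at day 2. In the contrast 15 of the 17 rose, against 10.1% of all genes, and 10 were called without the other-tissue libraries. The median change of the list was 0.67 both with and without those libraries. Ctss, a cathepsin of antigen-presenting cells, changed by 1.42 ± 0.31. Gaa, acid maltase, was the 1 gene of the list below sham at day 7 (-0.47), less far than at day 2 (-0.92). Of the complement list 9 of 14 genes rose. The recognition subunits C1qa (1.33 ± 0.20), C1qb (1.42 ± 0.21) and C1qc (1.24 ± 0.19) were above sham at day 7 with no call at day 2. C3, the central component, had 0.12 at day 7 with no call and was below sham at day 2 (-1.50), a change of 1.62 ± 0.47 (edgeR adjusted p = 0.0163).

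Neutrophil genes were above sham at both days. Of 16 genes 15 were called higher at day 7 and 15 at day 2, and edgeR called none in the contrast in either direction (none higher and 2 lower at an unadjusted p under 0.05; 1 lower by DESeq2 and 1 lower by limma voom; 1 lower by edgeR without day 7 MI replicate 1 or 3). Their median effect was 2.76 at day 7 and 3.43 at day 2. Over all genes tested 30.5% were called higher at day 7 and 21.1% at day 2. The contrast called 10.1% of all genes higher and 9.11% lower. Among MI hearts 12 of the 16 neutrophil genes were called lower at day 7 than at day 2 (median -1.69). Among sham hearts 1 was called lower and 1 higher (median -1.05). Over all genes the shares were 26.9% lower in MI hearts, and 11.5% lower and 9.57% higher in sham hearts. S100a8, a subunit of calprotectin, had 83.1, 10.6, 48.0, 4.46 and 2.27 CPM in day 7 MI hearts and 0.458, 1.23, 0.880, 0.251 and 0.255 CPM in day 7 sham hearts. Day 2 MI hearts held 226, 53.5, 104, 76.3 and 62.5 CPM and day 2 sham hearts 0.977, 3.42, 4.18, 2.94 and 4.23 CPM. S100a8 varied widely among day 7 MI hearts, and its change of 0.45 ± 1.58 was not called (adjusted p = 0.877); without day 7 MI replicate 1 it was -0.41. The median change of the list was -0.30, and 0.95 without the other-tissue libraries. Its 18 listed genes, none of them at 0 in all 20 libraries, summed to 52.2 to 386 CPM in day 7 MI, 12.6 to 39.0 in day 7 sham, 380.3 to 1066 in day 2 MI and 60.2 to 128 CPM in day 2 sham libraries.

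None of the 18 cytokine and chemokine genes was called by edgeR (1 higher and 1 lower at an unadjusted p under 0.05, 1 and 1 by DESeq2, none by limma voom). By edgeR 1 gene was called lower without day 2 MI replicate 4, day 2 sham replicate 4, day 7 MI replicate 2, or day 7 sham replicates 4 or 5. Il6 had a change of 2.10 ± 0.81 (adjusted p = 0.0682), which was called when day 2 sham replicate 4, day 7 MI replicate 5 or day 7 sham replicate 2 was left out. The median change of the list was -0.07, and 0.75 without the other-tissue libraries. Il1b had 0.55 ± 0.96 and Ccl2 0.11 ± 0.45, not called; Il1b had -0.15 without day 7 MI replicate 1 and 1.19 without day 7 sham replicate 2. Inflammatory monocyte genes split, with 3 higher and 2 lower of 13 (1 and 2 without the other-tissue libraries), against 10.1% and 9.11% of all genes. Fn1, Thbs1 and Vcan, matrix proteins that fibroblasts also make, rose by 2.0, 1.6 and 1.35. F10, coagulation factor X, fell by 1.76. Arg1, the arginase of wound macrophages, had -1.35 ± 0.57 (adjusted p = 0.0989).

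Most genes of mitosis were above sham at both days. The cell cycle list had 22 of 24 genes higher at day 7 and 22 at day 2, and in the contrast 8 were higher and 1, Ccnd1, lower (-0.61 ± 0.20). Over all genes tested the contrast called 10.1% higher and 9.11% lower. At days 7 and 2, 30.5% and 21.1% of all genes were above sham. The call of Ccnd1 was lost without day 2 MI replicates 1 or 2, day 2 sham replicate 2, day 7 MI replicates 1 or 3, day 7 sham replicates 1, 2 or 3, and without the other-tissue libraries. Mki67, a marker of dividing cells, averaged 57.9 ± 11.9 CPM in day 7 MI, 8.13 ± 1.84 in day 7 sham, 18.0 ± 7.57 in day 2 MI and 7.59 ± 3.42 CPM in day 2 sham hearts (SD, n = 5 each). It changed by 1.52 ± 0.44 (edgeR adjusted p = 0.0165), and by 1.28 without day 2 sham replicate 2 (adjusted p = 0.0509). Without the other-tissue libraries 3 of the 24 genes were called higher. The median change of the list was 0.94, and 1.25 without those libraries. Leaving out single libraries gave 3 (day 2 sham replicate 2) to 14 (day 2 MI replicate 2) genes, with 4 without day 7 sham replicate 5 and 5 without day 2 MI replicates 4 or 5 or day 7 MI replicates 2 or 4. None of 18 DNA replication genes was called by edgeR (3 higher at an unadjusted p under 0.05, none by DESeq2, 3 by limma voom; by edgeR 3 without day 2 MI replicate 2 and 1 without day 2 sham replicate 5, day 7 MI replicate 5 or day 7 sham replicate 2).

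Most genes of fatty acid oxidation had a lower infarct effect at day 7. Of 29 genes tested 24 fell, against 9.11% of all genes, and their median effect was -1.26 at day 7 and -0.32 at day 2. Leaving out single libraries gave 22 to 25 genes. Acaa2 (ENSMUSG00000036880, chromosome 18, 74779197 to 74806208, GRCm38), the thiolase of the mitochondrial pathway, had 278, 448, 339.9, 357 and 454 CPM in day 7 MI hearts and 973, 896, 992, 1098 and 1002 CPM in day 7 sham hearts. Its day 2 values were 782, 791, 855, 904 and 1008 CPM in MI hearts and 814, 984, 938, 999 and 923 CPM in sham hearts. Acaa2 was far below sham in every day 7 MI heart and overlapped at day 2, a change of -1.39 ± 0.20 (edgeR adjusted p = 2.26e-05). The day 4 effect was already -1.43.

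The genes that fell cover uptake, transport and breakdown. The fatty acid transporter Cd36 changed by -0.77 ± 0.19, the binding protein Fabp3 by -0.96 ± 0.20 and Acsl1, which activates fatty acids, by -0.94 ± 0.22. For the mitochondrial shuttle, Cpt1b changed by -0.81 ± 0.26, Slc25a20 by -1.02 ± 0.19 and Cpt2 by -0.69 ± 0.20. The call of Cpt1b was lost without day 2 MI replicate 4 or 5, day 7 MI replicate 3 or day 7 sham replicate 4. Of the enzymes, Hadhb changed by -1.10 ± 0.18, Hadha by -0.90 ± 0.19, Decr1 by -1.06 ± 0.18 and Acadvl by -0.97 ± 0.20. The thioesterases Acot1 (-1.97 ± 0.49) and Acot2 (-1.71 ± 0.37) had the largest negative values, and as neighbouring near copies they may share reads. Pdk4 had -1.56 ± 0.67, Echs1 -0.39 ± 0.14, Fabp4 -0.10 ± 0.24 and Cpt1a 0.14 ± 0.20, none of them called.

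**Figure D5:**
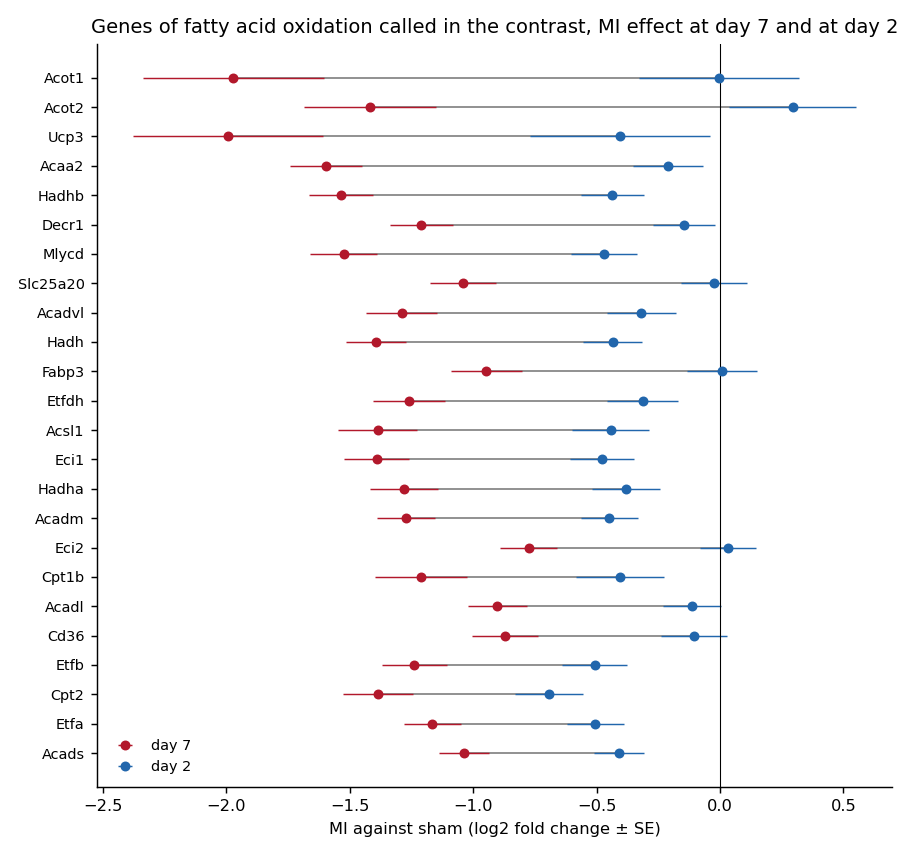
Log2 fold change of MI over sham (horizontal, with SE) at day 7 and day 2 for the 24 genes of fatty acid oxidation called in the contrast, of 29 tested (vertical), ordered by their change. All 24 were below 0 at day 7 and, as their calls require, lower there than at day 2.

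The citric acid cycle list had 15 of 17 genes lower in the contrast and the respiratory chain list 17 of 22, against 9.11% of all genes. Their medians were -0.58 and -0.55, and 14 genes of each list were called without the other-tissue libraries. Both were below sham at day 2 already, in 17 of 17 and 17 of 22 genes, against 21.3% of all genes. Cs, citrate synthase, changed by -0.62 ± 0.16, and Uqcrc1, a subunit of complex III, by -0.73 ± 0.15. Of 17 genes for the breakdown of branched-chain amino acids 7 fell (11 without day 7 MI replicate 5), led by Bckdha (-0.68 ± 0.17). Among 12 regulators of metabolism 4 fell, Esrra (-0.71 ± 0.14), Esrrg (-0.52 ± 0.17), Esrrb (-0.50 ± 0.17) and Tfam (-0.43 ± 0.13), with 1 to 6 when single libraries were left out. The lowest was without day 2 MI replicate 5, and 2 were called without day 2 MI replicate 4, day 7 MI replicates 1 or 3, or day 7 sham replicates 4 or 5. Ppargc1a, a coactivator of mitochondrial genes, had -0.26 ± 0.16 (adjusted p = 0.278), with -1.10 at day 7 and -0.85 at day 2.

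In the contractile and electrical lists fewer genes were called. Of 20 sarcomere genes 8 fell, among them the myosin light chain Myl2 (-0.74 ± 0.21), Tnnt2 (-0.65 ± 0.17) and Tpm1 (-0.62 ± 0.14). Without the other-tissue libraries 2 were called. The median change of the sarcomere list was -0.25, and -0.42 without those libraries. Csrp3, a mechanical sensor at the Z-disc, averaged 1407 ± 153 CPM in day 7 MI, 1372 ± 159 in day 7 sham, 2859 ± 403 in day 2 MI and 1415 ± 189 CPM in day 2 sham hearts (SD, n = 5 each), a change of -1.06 ± 0.19 (edgeR adjusted p = 0.000294). Myh6, the adult myosin heavy chain, had 0.48 ± 0.29 and the calcium pump Atp2a2 -0.08 ± 0.21, with no call; both were far below sham at each day. Myh7, the fetal isoform, had 1.12 ± 0.42 (adjusted p = 0.0616) and was called without day 2 MI replicate 4, day 2 sham replicate 1, or day 7 MI replicates 1 or 5. Of 18 ion channel genes 4 fell, led by Kcnk3 (-0.88 ± 0.14) and Kcnd3 (-0.81 ± 0.20). The natriuretic peptides Nppa (0.68 ± 0.26, adjusted p = 0.0575; called without day 2 sham replicate 2) and Nppb (-0.76 ± 0.36, adjusted p = 0.138) pointed in opposite directions without a call. Of the cardiac stress list 4 genes rose and 3 fell of 20 (3 and 4 without the other-tissue libraries). For all the lists of this paragraph, the shares over all genes tested were 10.1% called higher and 9.11% called lower.

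Another pattern was an infarct effect present at day 2 and no longer called at day 7. Rras2 (ENSMUSG00000055723, chromosome 7, 114046782 to 114117781, GRCm38), a small GTPase of the Ras family, had 86.6, 84.1, 93.9, 86.3 and 88.0 CPM in day 7 MI hearts and 73.6, 73.5, 77.8, 75.5 and 81.4 CPM in day 7 sham hearts. Day 2 MI hearts had 316, 260.4, 277, 338 and 314 CPM, against 89.2, 84.5, 90.1, 86.2 and 91.2 CPM in day 2 sham hearts. The day 2 MI hearts stood far above all the others, and the day 7 MI hearts were slightly above the day 7 sham hearts in CPM. On the scaled values of the fit, its effect was 0.01 at day 7, 0.60 at day 4 and 1.66 at day 2, a change of -1.65 ± 0.12 (edgeR adjusted p = 3.79e-10). Tfrc, the transferrin receptor, averaged 85.1 ± 17.3 CPM in day 7 MI, 108 ± 31.7 in day 7 sham, 185 ± 42.9 in day 2 MI and 70.6 ± 12.3 CPM in day 2 sham hearts (SD, n = 5 each), a change of -1.81 ± 0.36. Hspb1, a small heat shock protein, changed by -1.03 ± 0.27, with -0.06 at day 7 and 0.97 at day 2. Fosl1, a subunit of the transcription factor AP-1, changed by -1.48 ± 0.30, a call lost without the other-tissue libraries.

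The unfolded protein response, which raises chaperones when proteins misfold in the endoplasmic reticulum (ER), had 10 of 19 genes above sham and 2 below at day 7, against 30.5% and 27.3% of all genes. At day 2 it had 15 above and 1 below, against 21.1% and 21.3%. In the contrast 5 of 19 were lower, against 9.11% of all genes, and 3 without the other-tissue libraries. Hspa5 (ENSMUSG00000026864, chromosome 2, 34771970 to 34777547, GRCm38), the ER chaperone BiP, had 538, 572, 686, 752 and 491 CPM in day 7 MI hearts and 602, 585, 535, 598 and 557 CPM in day 7 sham hearts. Day 2 MI hearts had 963, 885, 1105, 1398 and 1536 CPM and day 2 sham hearts 856, 847, 527, 612 and 465 CPM. MI and sham mixed at day 7 and were apart at day 2, and the change was -0.84 ± 0.23 (edgeR adjusted p = 0.0103). Dnajb9, a cochaperone of BiP, changed by -0.89 ± 0.18, Manf by -0.74 ± 0.25, the chaperone Hsp90b1 by -0.58 ± 0.20 and Xbp1, a transcription factor of the response, by -0.48 ± 0.17. Calr (-0.09 ± 0.13) and Pdia6 (-0.09 ± 0.15) were not called. The count of 5 depended on single libraries: it was 2 without any one of day 2 MI replicates 4 and 5, day 2 sham replicates 4 and 5, day 7 MI replicate 5 or day 7 sham replicate 1, and 3 without day 2 MI replicate 3, day 2 sham replicate 3, day 7 MI replicates 2 or 3, or day 7 sham replicate 3.

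The promoters of this list were read because many genes of this response are known to carry the ER stress element, CCAAT and CCACG with 9 bases between them on either strand. Within 250 bases before the RefSeq start (build GRCm38.p6, where a start can differ from that of the counted gene), it was present in 6 of 18 list genes with a window (33.3%) and in 15 of the 11066 tested genes with a window (0.136%). Its core CCACG alone, searched on both strands and contained in the whole element, was present in 66.7% and 40.9%. A match is a description of the letters only. Hspa5 (chr2:34771840-34772089, plus strand) and Hsp90b1 (chr10:86705445-86705694, minus strand), whose effect was lower at day 7, are shown beside Calr (chr8:84846932-84847181, minus strand) and Pdia6 (chr12:17266339-17266588, plus strand), which were not called. All are printed 5′ to 3′ in the direction of the gene, with the element in capitals:
Hspa5: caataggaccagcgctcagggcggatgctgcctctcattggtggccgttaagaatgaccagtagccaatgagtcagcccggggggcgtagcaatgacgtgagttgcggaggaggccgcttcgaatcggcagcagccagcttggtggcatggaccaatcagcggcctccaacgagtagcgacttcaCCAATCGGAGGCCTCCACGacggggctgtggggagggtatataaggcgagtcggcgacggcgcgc
Hsp90b1: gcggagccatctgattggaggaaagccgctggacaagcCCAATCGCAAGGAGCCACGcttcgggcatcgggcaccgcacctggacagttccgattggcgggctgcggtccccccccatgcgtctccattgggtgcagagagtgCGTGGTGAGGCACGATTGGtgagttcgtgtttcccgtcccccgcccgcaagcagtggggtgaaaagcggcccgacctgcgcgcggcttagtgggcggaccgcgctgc
Calr: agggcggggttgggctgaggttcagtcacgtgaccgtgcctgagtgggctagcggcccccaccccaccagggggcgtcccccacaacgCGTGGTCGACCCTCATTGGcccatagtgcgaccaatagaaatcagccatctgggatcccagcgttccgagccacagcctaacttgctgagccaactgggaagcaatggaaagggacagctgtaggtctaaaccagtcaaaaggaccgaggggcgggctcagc
Pdia6: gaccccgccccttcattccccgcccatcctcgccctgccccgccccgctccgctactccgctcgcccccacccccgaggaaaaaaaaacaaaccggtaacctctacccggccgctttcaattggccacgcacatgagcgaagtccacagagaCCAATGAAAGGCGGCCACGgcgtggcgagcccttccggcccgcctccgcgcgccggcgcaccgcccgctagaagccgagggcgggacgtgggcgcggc

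The element begins 65 bases before the start in Hspa5, 98 in Pdia6 and 162 in Calr, and Hsp90b1 holds 2. Creld2 and Dnajc3, also not called lower, hold the element too. Of the 6 list genes with a whole element, only Hspa5 and Hsp90b1 were called lower. Dnajb9, Manf and Xbp1, which were called lower, were not among the 6. Of the ribosome biogenesis genes, 11 of 18 were above sham at day 2 and 3 at day 7, against 21.1% and 30.5% of all genes. In the contrast 8 were lower, against 9.11% of all genes. Nop58, a core protein of the particles that modify ribosomal RNA, averaged 36.2 ± 4.43 CPM in day 7 MI, 25.8 ± 1.34 in day 7 sham, 53.0 ± 4.65 in day 2 MI and 27.9 ± 3.77 CPM in day 2 sham hearts (SD, n = 5 each), a change of -0.51 ± 0.13. Rrp9 (-0.67 ± 0.15), Dkc1 (-0.50 ± 0.12) and Bop1 (-0.46 ± 0.12) fell as well.

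Of 21 growth factor genes 8 were called higher, against 10.1% of all genes, and 2 lower, a share close to the 9.11% of all genes. Hgf, hepatocyte growth factor, changed by 1.64 ± 0.38 and Igfbp7, an insulin-like growth factor binding protein, by 1.54 ± 0.18. Fgf16, a fibroblast growth factor of heart muscle, averaged 11.9 ± 3.64 CPM in day 7 MI, 22.9 ± 3.29 in day 7 sham, 22.6 ± 1.40 in day 2 MI and 17.8 ± 1.48 CPM in day 2 sham hearts (SD, n = 5 each), a change of -1.37 ± 0.20 (edgeR adjusted p = 2.26e-05). Of the 21, 5 were called higher without day 2 sham replicate 1, day 7 MI replicate 4 or the other-tissue libraries. Endothelial genes had 2 of 16 called, Vwf and Tie1, against 10.1% of all genes, and none without the other-tissue libraries, day 2 MI replicate 5, day 2 sham replicates 1 or 2, or day 7 MI replicate 3. It was 1 without day 2 MI replicates 1 or 2, day 2 sham replicates 4 or 5, or day 7 sham replicates 2, 3 or 5. The pan-endothelial marker Pecam1 had 0.10 ± 0.12, not called. Of 11 pericyte and smooth muscle genes 4 rose, Pdgfrb (1.22 ± 0.23), Notch3 (1.16 ± 0.28), Acta2 and Mylk (0.52 ± 0.18); 1 was called without the other-tissue libraries and 2 without any one of day 2 MI replicate 3, day 2 sham replicates 1 and 4, day 7 MI replicates 3 and 4 or day 7 sham replicate 5.

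Several marker lists of other cells and tissues had no gene called. Adipocyte genes summed to 108 to 510.3 CPM in day 7 MI and 94.2 to 474 CPM in day 7 sham libraries, against 19.4 to 48.0 CPM in day 2 MI and 22.6 to 45.8 CPM in day 2 sham libraries; their part in the other results was not tested. No gene of the lung epithelium (10 genes), adipocyte (7), B cell (8), T and NK cell (6) or erythroid (7) lists was called by edgeR, at an unadjusted p under 0.05, by DESeq2 or by limma voom. Leaving out day 2 sham replicate 5 gave 1 T and NK cell gene, and leaving out the other-tissue libraries 1 lung gene. The mesothelial list (9 genes) had none by edgeR, 1 higher at an unadjusted p under 0.05, 1 by DESeq2 and 2 by limma voom, with 1 by edgeR without day 7 sham replicate 2 or the other-tissue libraries. The platelet list (6 genes) had none by edgeR or DESeq2, and 1 lower at an unadjusted p under 0.05 and by limma voom, as by edgeR without day 7 MI replicate 1. Of 5 brown fat genes tested, Dio2, which activates thyroid hormone, was called higher (1.74 ± 0.36) and Cidea lower; without the other-tissue libraries 1 was called higher and none lower. Of 8 Schwann cell genes the neurotrophin receptor Ngfr was called (1.49 ± 0.43), and none without the other-tissue libraries. Atp2a1, the calcium pump of fast skeletal muscle, was called at 5.76 ± 1.97 and had 0.30 without day 7 MI replicate 4, the library with Myh1. Its call was kept only where day 7 MI replicate 1, 2, 3 or 5 was the library left out. In the interferon-stimulated list Ifit1 (0.95 ± 0.33) and Ifit3 (0.95 ± 0.34) were called of 20, a share close to the 10.1% of all genes, and none without the other-tissue libraries. By limma voom, and at an unadjusted p under 0.05, 8 were higher, and by DESeq2 2. Leaving out single libraries gave 0 to 7 genes (7 without day 7 MI replicate 3), with 2 only without day 2 MI replicate 3, day 2 sham replicate 5, day 7 MI replicate 1 or day 7 sham replicate 1, and 1 without day 2 MI replicate 4 or day 7 sham replicates 2 or 3.

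The arm that moved was usually the infarcted one. Between day 7 and day 2, MI hearts differed in 4592 genes upward (29.6%) and 4184 downward (26.9%), and sham hearts in 1487 upward (9.57%) and 1780 downward (11.5%). Of the 1575 genes with a higher effect, 1303 were higher at day 7 in MI hearts with no call in sham hearts, and 75 had no call in MI hearts and were lower in sham hearts. Of the 1415 with a lower effect, 991 were lower in MI hearts with no call in sham hearts, and 105 had no call in MI hearts and were higher in sham hearts. These within-arm counts include any difference between library sets. Without the 6 lung libraries the sham hearts differed in 1391 genes, against 3267 with them. That fit keeps only replicates 4 and 5 of the day 7 sham group, and the cause of the lower count was not tested.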

How the data were processed

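RNA from the hearts was purified with RNeasy columns, made into NEBNext Ultra II Directional libraries and sequenced as 150-base pairs on an Illumina NovaSeq, per the labels' protocols. The authors deposited whole-number counts per gene, made with bcl2fastq 2.20.0 and featureCounts on GRCm38, per the submitters' processing notes. Not given in the sources used here are the aligner, the featureCounts version and whether counting used strand, so overlapping genes and near copies may share reads. Symbols and gene types were taken from the GENCODE mouse annotation, which named 42548 of 43629 gene IDs. The 37 mitochondrial genes held no count in any library.

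All 30 libraries were fitted together, with 1 mean per day and operation, in edgeR 4.0.16 with limma 3.58.1 (R 4.3.3). Genes were kept by filterByExpr (minimum count 10, minimum total 15), libraries were scaled by TMM, and contrasts were tested with the robust quasi-likelihood F test (2-sided). P-values were adjusted by Benjamini-Hochberg over the 15537 genes tested, with a threshold of 0.05, and errors of log2 changes are SE. CPM divides a count by its library total, without TMM factors. A count of 3 corresponded to 0.213 to 0.383 CPM. That floor covers counting error only, since no molecular identifiers are stated.

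The groups and gene lists were chosen with earlier results of these data known. There are 58 lists with 816 genes, and some share members. Named genes were the 10 largest called changes in each direction (protein-coding, at least 5 CPM on average, also called without the lung and skeletal muscle libraries), up to 8 reversed genes in each direction, up to 2 per list and a fixed set. Other list members are examples picked after their values were seen. Some counted list members are not reported here by name.

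Alternatives were DESeq2 1.42.0, limma voom with sample weights, median-ratio scaling, other filters, a test against a 1.5-fold change, a fit of days 2 and 7 alone, protein-coding genes alone, a replicate block, and leaving out each library, the 6 lung libraries, or those and the 1 skeletal muscle library. Replicate numbers do not pair the hearts by any label. The fitting code was tested on simulated data. Promoter windows were taken from RefSeq (GRCm38.p6) for 11066 of the genes tested. Tables and figures were made with Python 3.11.15 and matplotlib 3.10.9.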

Additional observations from a re-analysis of the deposited data

Results flagged for a closer look

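The contrast is itself a test of whether the infarct effect differed between the days, and 2990 genes passed it. The rule for named genes took up to 8 reversed genes in each direction, and these 16 are given here. The change was 5.45 for Matn4, 2.48 for Itm2a, 2.39 for Mmp2, 2.10 for Abi3bp, 1.94 for Megf6, 1.72 for C1qtnf2, 1.66 for Nynrin and 1.62 for Islr on the log2 scale. In the other direction it was -1.40 for Nkain1, -1.35 for Hmga1, -1.25 for Stk40, -1.20 for Hmga1b, -1.16 for Dusp10, -1.04 for Cryab, -0.96 for Mrps18b and -0.79 for Tmem41a.

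Among 67 genes in 4 groups, 17 of 268 groups held 1 library far from the other 4 by Dixon's test, which chance alone gives in about 1 in 20 groups. Day 7 sham replicate 2 was the high library in 11 of the 17. There Col3a1 had 2339 CPM (790.5 to 1170 CPM in the other 4), Postn 319 (126 to 172), Lox 69.7 (23.1 to 35.3), Tnc 26.7 (4.27 to 8.67), Timp1 23.9 (7.04 to 11.6) and Cemip 4.04 (0.754 to 1.21). The same library had 1.46 CPM for Col11a1 (0.879 to 1.02), 20.5 for Gpnmb (3.52 to 5.40), 27.0 for Spp1 (5.31 to 8.67), 38.1 for Lyve1 (23.9 to 27.0) and 3.25 for S100a9 (0.128 to 0.880). Of these genes, Spp1 changed its call without that library, with 1.92 (edgeR adjusted p = 0.0209) in place of 1.32 (0.128).

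The other 6 were spread over 5 libraries. Gpnmb had 23.5 CPM in day 2 MI replicate 2 (3.55 to 7.43 in the other 4). Il6 had 13.4 CPM in day 7 MI replicate 1 (2.70 to 5.69), where Ankrd1 was low at 3029 CPM (3611 to 3804). Mrps18b was low in day 7 MI replicate 3 at 7.92 CPM (11.1 to 12.4). Acta2 was low in day 7 sham replicate 5 at 109 CPM (189 to 209). Myh7 had 1035 CPM in day 2 sham replicate 2 (404 to 581.9).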

How the results depend on the processing

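Tested against a 1.5-fold change, the contrast kept 230 genes higher and 26 lower, 1 gene reversed to higher (Matn4) and 0 to lower. The same test called 3198 genes for the infarct effect at day 7 (8971 against no change), 1192 at day 2 (6593), 2498 between days in MI hearts (8776) and 637 in sham hearts (3267). The 70 genes reversed to lower became 113 by DESeq2 and 109 by limma voom. The 113 reversed to higher became 174 by limma voom, 49 with no filter on low counts and 69 without the lung and skeletal muscle libraries. Sham hearts differed between the days in 1391 genes without the lung libraries and 1414 without those and the skeletal muscle library; the cause of these differences was not tested.

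Leaving out 1 library at a time gave 1232 to 1693 genes higher and 1151 to 1816 lower in the contrast, 71 to 126 reversed to higher and 49 to 103 reversed to lower. The infarct effect ranged over 8432 to 9139 genes at day 7 and 5678 to 6734 at day 2. The difference between days ranged over 8092 to 8859 genes in MI hearts and 2554 to 3474 in sham hearts.

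With the replicate number as a block, 1528 genes were higher and 1383 lower, and 105 and 69 reversed. Deviations of same-numbered MI and sham hearts correlated at -0.26 to 0.51 at day 7 and at -0.04 to 0.24 at day 2. The 0.51 was for replicate 2, where both libraries held lung transcripts. Such correlations cannot decide whether the numbers pair the hearts. Without the lung and skeletal muscle libraries 1171 genes were higher and 1033 lower. Genes called higher made up 52.7% of calls, 44.7% with median-ratio scaling and 44.3% by DESeq2. Over the 132 named genes and all alternatives, 3807 values kept their side of the threshold, 267 lost the call and 18 gained it; none of the called genes changed sign. The uncalled S100a8, S100a9, Il1b, Ccl2, Acta1, Ankrd1, Atp2a2, Kcnip2 and Fos changed sign under some alternative.

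Day and library set cannot be told apart, and the sampled part of the heart is not in the labels. Genes near 3 counts, such as Matn4 and Col11a1 at day 2, have effects that rest on few reads.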

Other observations

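The genes of this section were chosen after their values were seen. Some genes differed between the days in sham hearts and had no call in MI hearts. Serpina3n, a secreted protease inhibitor of a family with near copies, averaged 184 ± 76.5 CPM in day 7 MI, 29.0 ± 11.2 in day 7 sham, 152 ± 21.0 in day 2 MI and 149.6 ± 70.2 CPM in day 2 sham hearts (SD, n = 5 each). Its change of 2.57 ± 0.45 came with a sham difference between the days of -2.40, with 0.17 and no call among MI hearts. Srpx, a secreted protein with sushi repeats, averaged 30.9 ± 3.80 CPM in day 7 MI, 10.4 ± 3.06 in day 7 sham, 22.1 ± 3.13 in day 2 MI and 24.6 ± 5.73 CPM in day 2 sham hearts, a change of 1.65 ± 0.29.

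Other genes stayed above sham at day 7 by less than at day 2. Hbegf, a ligand of the epidermal growth factor receptor, averaged 39.3 ± 12.3 CPM in day 7 MI, 17.4 ± 2.35 in day 7 sham, 111 ± 26.8 in day 2 MI and 22.8 ± 1.91 CPM in day 2 sham hearts, a change of -1.18 ± 0.23. Fhl1, a LIM protein of the sarcomere, averaged 418 ± 141 CPM in day 7 MI, 171 ± 23.9 in day 7 sham, 1114 ± 432 in day 2 MI and 234 ± 19.6 CPM in day 2 sham hearts, a change of -1.04 ± 0.27. Among the reversed genes, both subunits of soluble guanylate cyclase, the receptor of nitric oxide, were above sham at day 7 and below it at day 2: Gucy1a1 had 0.42 and -0.59, and Gucy1b1 0.71 and -0.41. Bysl (-0.48 at day 7 and 0.32 at day 2), Grwd1 (-0.36 and 0.43) and Polr3g (-0.52 and 0.38), which serve ribosome and small RNA synthesis, reversed the other way.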
